A study of Mus musculus with 8 samples.

Results

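The cells described here were endothelial cells (ECs) of mouse breast tumours whose transcripts included most of the genes *Kit*, *Bmp2*, *Nos2*, *Dapk2*, *Fscn1* and *Adam19*, and they are called Kit Bmp2 Nos2 ECs. A cell was taken when it had 1000 or more detected genes, at least 1 unique molecular identifier (UMI, a tag that counts single RNA molecules) of *Pecam1*, and a UMI of at least 4 of these 6 genes. It also had to carry fewer than 4 of the tip-like genes *Pgf*, *Adm*, *Apln*, *Slc16a3*, *Trp53i11* and *Cxcr4* and fewer than 2 of the cycling genes *Mki67*, *Top2a* and *Birc5*. There were 429 such cells among 6222 ECs and 8204 deposited cells. These genes chose the cells, so their values are descriptions and carry no test.

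The 8 libraries were single-cell RNA libraries, made with 10x 3′ chemistry from live CD31+ CD45- ECs sorted from tumours of adult mice. They fell into 4 groups of 2: PBS and cGAMP in the spontaneous model, and PBS and cGAMP in the implanted one. Spontaneous tumours grew in *MMTV-PyMT* mice, in which a mammary promoter drives the polyoma middle T oncogene, and implanted tumours grew from *MMTV-PyMT* tumour cells placed in the mammary fat pad of syngeneic mice. Both models therefore share the oncogene in the tumour cells, but the host carries it only in the spontaneous model. Tumours received an injection of PBS or of cGAMP, the cyclic dinucleotide that binds and activates STING, and were sampled within hours. The labels name C57BL/6 and the methods FVB as the strain, which is not settled. The methods give 2 mice for each group, and the labels do not say that each library is 1 mouse, so the p-values measure the spread between libraries.

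Each of the 6 genes has a known role in vessels or their surroundings. *Kit* encodes the receptor of stem cell factor, *Bmp2* a bone morphogenetic protein ligand and *Nos2* the inducible nitric oxide synthase. *Dapk2* encodes a death-associated, calmodulin-regulated kinase, *Fscn1* the actin-bundling protein fascin of filopodia, and *Adam19* a membrane-anchored metalloprotease. Activated STING signals through TBK1 and IRF3 and, more weakly, through NF-kB, which switches on interferon genes, and ECs lining tumour capillaries take part in this response directly or through cytokines of their neighbours.

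In the GRCm38 mouse assembly, which is the mm10 build of the files, *Kit* lies on chromosome 5 from 75574916 to 75656722 and *Fscn1* on chromosome 5 from 142960343 to 142973185. *Bmp2* lies on chromosome 2 from 133552159 to 133562885 and *Dapk2* on chromosome 9 from 66158223 to 66272242. *Nos2* lies on chromosome 11 from 78920787 to 78960254 and *Adam19* on the same chromosome from 46055992 to 46147343. All are protein-coding genes on the plus strand.

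*Fscn1* was detected in 99.1% of the 429 cells, *Kit* in 86.7%, *Dapk2* in 82.3%, *Nos2* in 66.9%, *Adam19* in 64.1% and *Bmp2* in 41.5%. The commonest combination was *Kit*, *Dapk2*, *Fscn1* and *Adam19*, in 86 cells, followed by the same genes with *Nos2*, in 71 cells. *Kit*, *Nos2*, *Dapk2* and *Fscn1* occurred in 57 cells and all 6 genes in 23 cells. Among the other 5793 ECs, *Fscn1* was detected in 56.6%, *Kit* in 25.8% and *Nos2* in 8.75%. The genes that named the cells were thus not private to them, and *Kit* was also detected in 80.1% of the 508 ECs with 4 or more tip-like genes.

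At the threshold, 278 cells carried 4 of the 6 genes and 568 further ECs, outside the set, carried 3. Their median depth was 16815 and 15558 UMIs. *Nos2* averaged 65.1 CPM (UMIs scaled to a total of 1e6 in each cell) in the cells with 4 genes and 26.1 CPM in those with 3, *Kit* 148 and 117 CPM, and *Fscn1* 411 and 306 CPM. The rule counted these same genes, so their levels differ across the threshold partly by construction. They do not show whether the boundary is gradual. The number of genes found rose with depth. The median was 7638 UMIs in ECs with none of the 6 genes and 23105 UMIs in ECs with all of them.

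Mean levels over cells are given for replicates 1 and 2 of each group, PBS before cGAMP and the spontaneous model first. *Kit* was at 235 and 184, 156 and 160, 170 and 136, and 105 and 140 CPM. Its highest values were in spontaneous PBS and its lowest in replicate 1 of implanted cGAMP. *Adam19* was at 121 and 107, 43.9 and 50.9, 102 and 98.0, and 27.6 and 19.4 CPM. Both cGAMP groups lay below both PBS groups with no overlap, and the other ECs had the same order at lower levels, with 16.2 to 21.7 CPM after PBS and 8.28 to 13.7 CPM after cGAMP.

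*Bmp2* was at 18.6 and 284, 177 and 61.6, 331 and 126, and 398 and 507 CPM. Replicates of 1 group differed widely, and *Bmp2* was detected in 82.1% and 83.3% of the cells in implanted cGAMP against 5.48% and 25.0% in spontaneous PBS. Part of these levels came from the cells with lymphatic markers described below. Without those, *Bmp2* was at 0 and 23.3, 90.1 and 61.6, 331 and 126, and 439 and 464 CPM, and it was detected in 0 of 69 cells of replicate 1 of spontaneous PBS, which allows a share of up to 4.35%. *Kit* in implanted cGAMP was then at 117 and 178 CPM. *Dapk2* was at 178 and 153, 139 and 125, 89.5 and 96.3, and 68.7 and 69.0 CPM, so that the groups followed each other without overlap. *Nos2* ranged from 63.0 to 106 CPM and *Fscn1* from 324 to 576 CPM over the libraries. The same 6 genes therefore selected cells with a different mix of markers in each group.

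**Figure D1:**
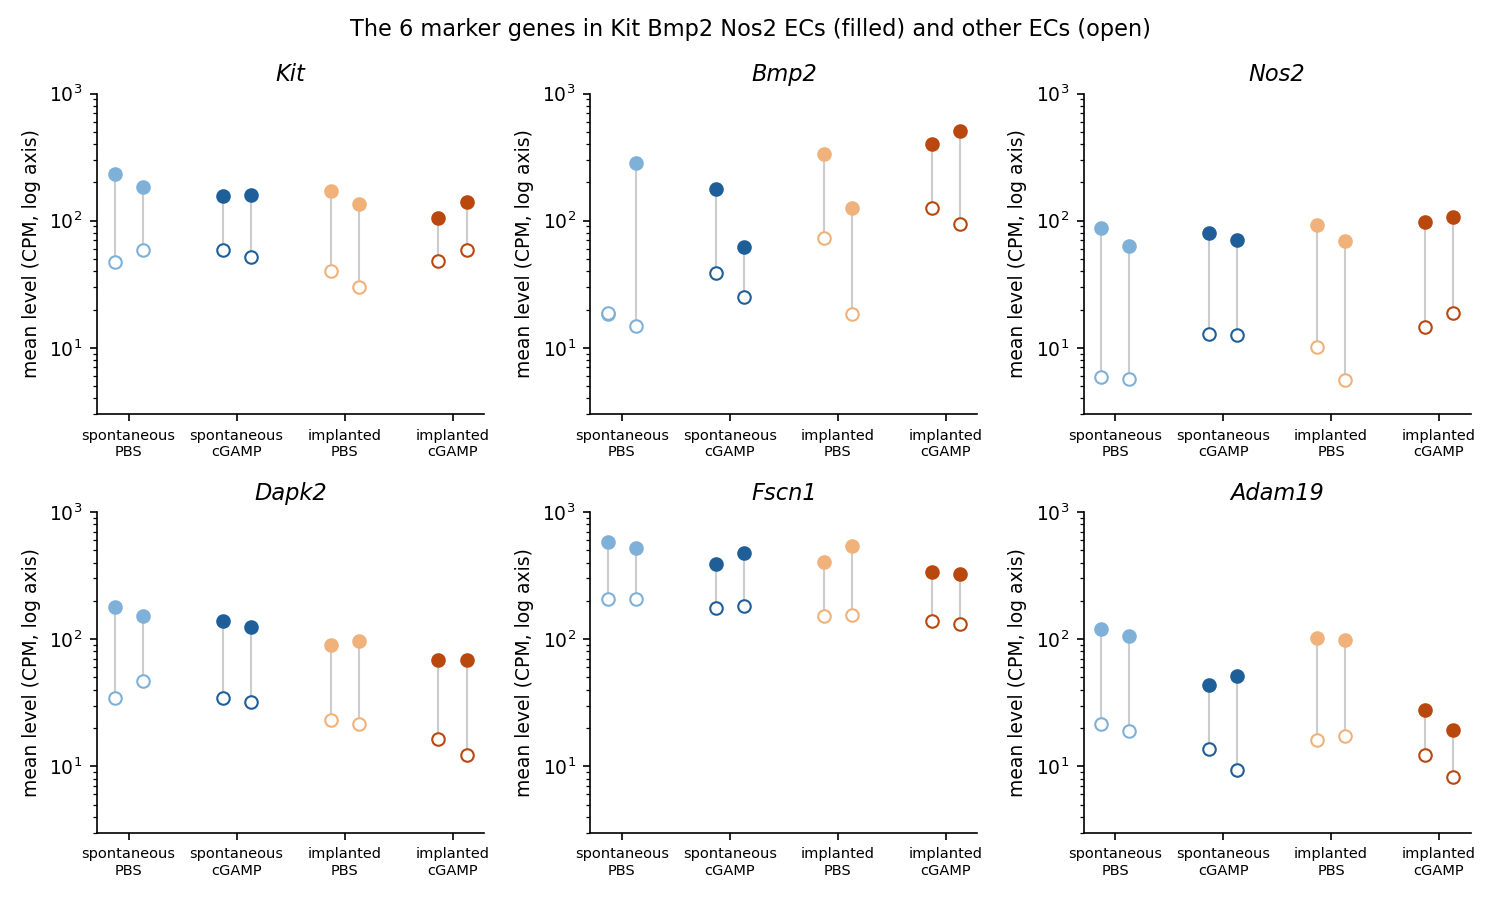
Mean level of the 6 marker genes (CPM, log axis) in Kit Bmp2 Nos2 ECs (filled points) and in the other ECs (open points) of each of the 8 libraries, with a line joining both values of a library. *Adam19* fell to 19.4 to 50.9 CPM in the 4 cGAMP libraries, and *Bmp2* in replicate 1 of spontaneous PBS was as low in Kit Bmp2 Nos2 ECs (18.6 CPM) as in the other ECs (18.7 CPM).

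The label calls these cells immature capillary ECs. All 12 pan-endothelial markers had UMIs in the cells of every library, with summed levels of 8153 to 9676 CPM, beside 8112 to 9501 CPM in the other ECs. The tumour capillary list had UMIs of all 16 genes in every library, and each cell carried at least 3 of them. The other ECs had UMIs of the same 16, and 98.7% to 99.9% of them carried at least 3, so that this measure does not set the cells apart. No list fixed here defines immaturity, so that word was not checked. Mast cells are another well-known *Kit*-expressing type. Of the 7 mast cell or progenitor genes in the files, *Cpa3*, *Fcer1a* and *Ms4a2* had no UMI in the cells of any library, *Cma1* had UMIs in replicate 1 of implanted PBS and replicate 2 of implanted cGAMP, and *Cd34*, *Gata2* and *Hdc* had UMIs in all 8. The list summed to 634 to 1180 CPM, beside 729 to 948 CPM in the other ECs. At least 3 of its genes were found in 1.92% to 8.62% of the cells after PBS and in 14.3% to 30% after cGAMP, and in 4.17% to 8.98% and 14.6% to 21.7% of the other ECs. *Hdc*, the histidine decarboxylase, was called higher after cGAMP in both models, calls that were lost in 10 of 24 alternatives in spontaneous tumours (of up to 0.258) and in 6 of 24 in implanted ones (of up to 0.188, limma adjusted p). Of 9 immune markers, 4 to 8 had UMIs in a library, and their summed level was 4.78 to 92.3 CPM, highest in implanted cGAMP at 82.4 and 92.3 CPM. *Ptprc*, which encodes the CD45 that the sort removed, had no UMI in the 4 spontaneous libraries.

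Some of the cells went against the label. The lymphatic markers were *Prox1*, *Lyve1*, *Pdpn*, *Ccl21a*, *Mmrn1*, *Flt4*, *Reln* and *Fxyd6*. They were found 3 or more at a time in 27 of the 429 cells (6.29%, against 6.87% of the other ECs). These cells numbered 4 and 8 in the spontaneous PBS libraries, 3 and 0 in spontaneous cGAMP, 0 and 0 in implanted PBS, and 5 and 7 in implanted cGAMP. *Prox1*, the lymphatic master regulator, was at 361 CPM in these 27 cells and 2.52 CPM in the other 402, and *Pdpn* had no UMI in the 402. *Kit* was found in only 9 of the 27, at a mean of 20.5 CPM against 177 CPM. They held 98.3% of all *Lyve1* UMIs of the set, 99.4% of *Ccl21a*, 99.9% of *Ccl20*, 87.3% of *Clu*, 80.9% of *C3* and 26.8% of *Bmp2* itself. *Prox1*, *Pdpn*, *Lyve1* and *Ccl21a* were among the genes that chose the 27 cells, so their values largely describe that choice. *Ccl20*, *Clu* and *C3* were not among those genes. The fits below were also run without these 27 cells.

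At least 3 markers of the mural, fibroblast, epithelial or immune list were found in 181 of the 429 cells. In replicate 1 of spontaneous cGAMP these were 38 of 57 cells. Mural markers alone were found 3 or more at a time in 38 cells over all libraries. The summed level of the 8 mural genes was 278 and 669 CPM in spontaneous PBS, 818 and 700 CPM in spontaneous cGAMP, 66.6 and 36.1 CPM in implanted PBS, and 35.4 and 198 CPM in implanted cGAMP. The 6 fibroblast markers summed to 141 and 234 CPM in spontaneous cGAMP and to at most 49.5 CPM elsewhere, and the 8 epithelial markers to 99.1 to 335 CPM. The part of these transcripts in the results below was not tested beyond the fits without the cells that carried them. No doublet caller was run. Of the 8197 barcodes, 7 occurred in 2 or more libraries, and 1 of the 429 cells had such a barcode.

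The libraries held 654 to 2025 cells. The median was 14835 to 21036 UMIs in Kit Bmp2 Nos2 ECs and 7788 to 15133 UMIs in the other ECs, a ratio of 1.09 to 2.59 that was largest in replicate 1 of implanted cGAMP. The cells of a library together gave 803781 to 1344074 UMIs. The shares that follow are therefore given also with all ECs brought to 1 depth.

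Kit Bmp2 Nos2 ECs were 73 of 869 and 52 of 556 ECs in spontaneous PBS, 57 of 644 and 63 of 639 in spontaneous cGAMP, 58 of 909 and 57 of 1026 in implanted PBS, and 39 of 1020 and 30 of 559 in implanted cGAMP. These were 8.40% and 9.35%, 8.85% and 9.86%, 6.38% and 5.56%, and 3.82% and 5.37%, with Wilson 95% confidence intervals between 2.81% and 12.4% that cover counting error only. Every spontaneous library lay above every implanted one. The implanted model was lower by 3.83 percentage points (exact permutation test within treatments, two-sided, p = 0.0556), which is the smallest p that 36 arrangements allow. The cGAMP libraries differed from the PBS libraries by -0.447 points (exact permutation test within models, two-sided, p = 0.556).

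The order was not kept at every depth. Of the ECs, 472 to 925 a library had 5000 UMIs or more, among which the group means, in the order above, were 10.3%, 10.3%, 6.58% and 6.02%. Thinned to 5000 UMIs each, the means were 3.71%, 2.51%, 2.44% and 1.83%, and the models differed by -0.978 points (exact permutation test, p = 0.0556). With each EC thinned to 3000 UMIs, the difference was 0.246 points in the other direction (exact permutation test, p = 0.556). That setting left only 2 to 14 cells a library, both extremes in implanted PBS, whose replicates stood at 1.60% and 0.201%. The whole rule was applied again after thinning, so the cells chosen can differ from those at full depth. Between treatments, the cGAMP libraries differed from the PBS libraries by -0.908 points at 5000 UMIs and by 0.158 points at 3000 UMIs (exact permutation tests, p = 0.111 and 0.778). No order of the shares between models or treatments is read from these values.

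**Figure D2:**
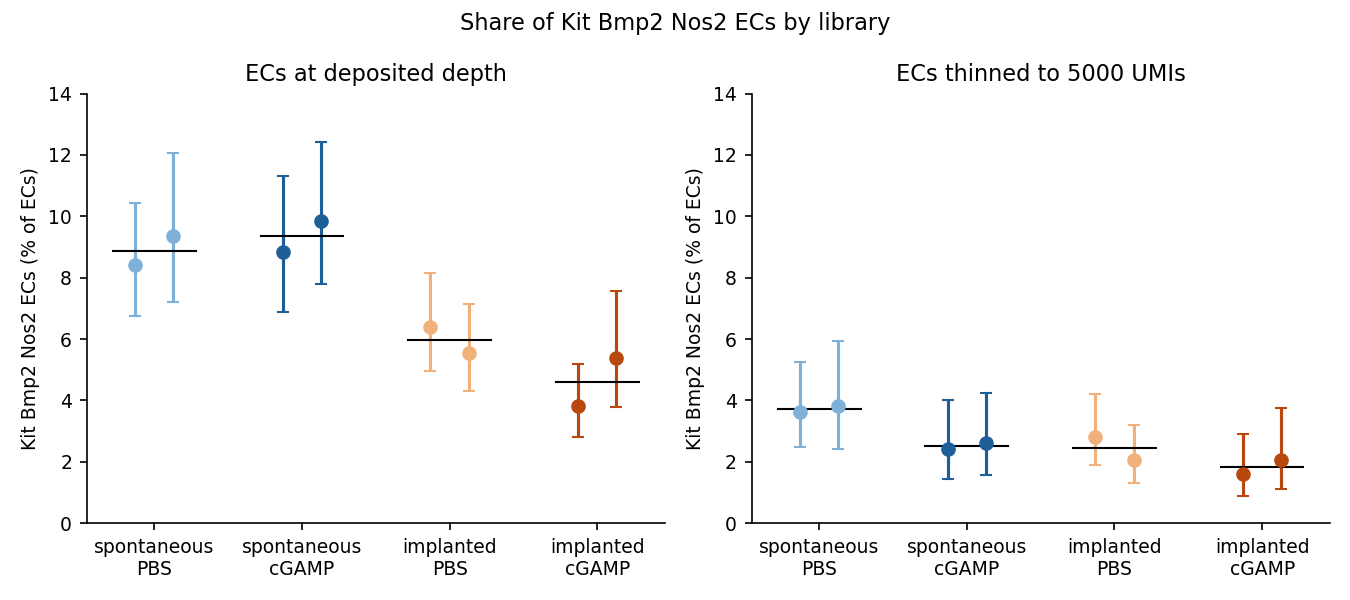
Kit Bmp2 Nos2 ECs as a percentage of ECs in each of the 8 libraries (points, with Wilson 95% intervals for counting error; horizontal lines, group means of 2), at deposited depth and with each EC thinned to 5000 UMIs. Spontaneous libraries sit at 8.40% to 9.86% and implanted ones at 3.82% to 6.38% on the left, and all sit at 1.60% to 3.81% on the right.

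A further 335 ECs carried 4 or more of the 6 genes but were left out by the tip-like or cycling genes. Of all ECs with 4 or more markers, 68.2% and 74.3% stayed in the set in spontaneous PBS, 54.8% and 63.6% in spontaneous cGAMP, 51.8% and 58.2% in implanted PBS, and 38.6% and 41.1% in implanted cGAMP. Tip-like genes alone left out 289 of them. Counted whatever their tip-like and cycling genes, cells with 4 or more markers differed between cGAMP and PBS by 1.96 points (exact permutation test, p = 0.111).

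The comparison with the other ECs of the same library is a description, since the cells were chosen by their transcripts. Of 6597 genes at 20 CPM or more outside the rule, 468 (7.09%) were higher in Kit Bmp2 Nos2 ECs in every library and 477 (7.23%) lower. Among the leading ones, *Adamts7*, a secreted metalloprotease, was at 71.6 CPM against 23.6 CPM, *Bcl6b*, a transcriptional repressor, at 147 against 58.8 CPM, and *Ephb1*, an ephrin receptor, at 53.2 against 17.0 CPM. *Il4i1*, a secreted amino acid oxidase, was at 54.2 against 8.54 CPM, with a log2 ratio that varied from 0.30 to 3.47 over the libraries. *Nid2*, a basement membrane linker, was at 258 against 116 CPM.

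Markers of larger vessels were low. *Ackr1*, the venular chemokine receptor, averaged 9.56 CPM against 217 CPM in the other ECs, *Selp*, an endothelial selectin, 20.1 against 201 CPM, and *Gja5*, an arterial gap junction protein, 5.41 against 62.5 CPM. *Edn1*, the gene of the vasoconstrictor endothelin, was at 22.9 against 129 CPM. Of 11 arterial genes, 9 were lower in every library and none higher (median log2 ratio -1.81), and of 9 venous or stalk-like genes 5 were lower and none higher (median -0.96), beside a median of 0.00 over all genes.

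Genes of the basement membrane and of the tumour capillary list stood on the other side. Of 15 basement membrane genes, 9 were higher in every library (median 0.55): *Col4a1*, *Col4a2*, *Col15a1*, *Lama4*, *Lamb1*, *Lamc1*, *Nid2*, *Hspg2* and *Sparc*, with *Fn1* and *Lamb2* lower. Of 16 tumour capillary genes, 8 were higher (median 0.40), 5 of them also in the former list. The other capillary list, of AQP7 or lipid-handling capillaries, went the other way (median -0.59). Of its 10 genes *Lpl*, *Meox2* and *Rbp7* were lower in every library and *Gpihbp1* higher. Of 24 genes of fascin and actin protrusion 8 were higher and *Enah* was lower. The higher ones were *Fmnl3*, *Lcp1*, *Marcks*, *Marcksl1*, *Myo10*, *Pfn1*, *Tmsb10* and *Vasp*. Of 18 NF-kB targets 7 were higher and 2 lower, and of 23 antigen presentation genes 8 were higher.

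Of 19 Kit signalling genes, *Cblb*, *Gab1* and *Spred1* were higher in every library (15.8%) and none was lower. Of 14 ADAM proteases and inhibitors *Adamts4*, *Mmp14* and *Mmp15* were higher, *Adamts1* and *Adamts5* lower (median 0.04). Of 18 genes of BMP signalling 8 were lower, among them the receptors *Acvrl1* and *Bmpr2* and the targets *Id1*, *Smad6* and *Smad7*, and *Bambi*, *Bmp1* and *Smad1* were higher (median -0.44). Of 14 nitric oxide and arginine genes *Ass1* and *Ddah1* were lower and none higher. Of 18 immediate early and stress genes 7 were lower and none higher (median -0.44). Of 18 apoptosis and survival genes 6 were higher, including *Bcl2* and *Casp8*, and *Fas* was lower.

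**Figure D3:**
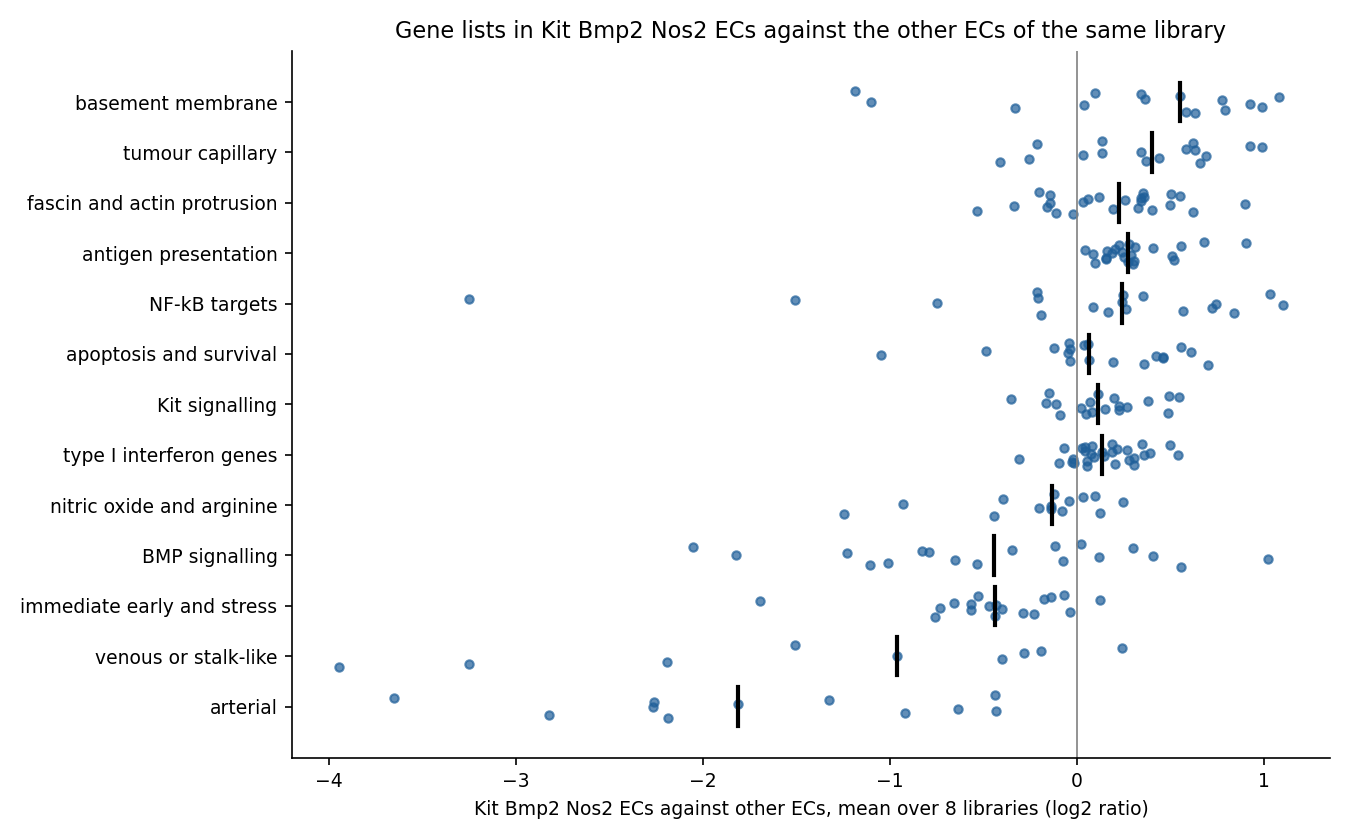
Mean log2 ratio over the 8 libraries of each gene's level in Kit Bmp2 Nos2 ECs to that in the other ECs of the same library, by gene list (points, genes; bars, list medians). Basement membrane genes lie mostly above 0 (median 0.55) and arterial genes below it (median -1.81).

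This comparison asks what STING activation did to these cells where the tumour arose in place. All 29 type I interferon genes tested rose after cGAMP, with a median log2 fold change of 2.93 beside -0.10 over all genes. Differences were tested with limma on log2(CPM + 5), with an adjusted p below 0.05 as the call, and fold changes are on that scale, which understates those of low genes. The test covered 7154 genes and called 322 (4.5%), of which 224 rose (3.13%) and 98 fell (1.37%). The count was 178 without replicate 1 of spontaneous PBS, and 192 and 186 without replicate 1 and 2 of spontaneous cGAMP. The median mitochondrial share of a cell's UMIs moved with the treatment, at 4.70% and 4.33% after PBS and 3.06% and 3.07% after cGAMP, and its part in the response was not tested.

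*Irf7*, the transcription factor that amplifies interferon signalling, was at 7.65 and 14.6 CPM after PBS and at 1257 and 1334 CPM after cGAMP. Its log2 fold change was 6.37 ± 0.20 (SE, n = 2 and 2, limma adjusted p = 6.08e-10). *Ccl5*, a T cell-attracting chemokine, had no UMI among 2099740 after PBS and was at 1303 and 482 CPM after cGAMP, which makes cGAMP at least 689-fold higher if the PBS libraries together are put at 3 UMIs, the floor used throughout. The groups did not overlap for either gene, and the pair of *Ccl5* values after cGAMP lay further apart than that of *Irf7*.

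*Ifit1*, an interferon-induced binder of foreign RNA, rose from 5.14 and 6.64 to 443 and 467 CPM (log2 fold change 5.40 ± 0.21). *Ifit3* rose from 5.45 and 1.63 to 353 and 435 CPM, and *Ifit3b* from 1.62 and 1.61 to 204 and 268 CPM. The last pair are near-identical copies between which reads can be split wrongly, so their separate values are uncertain. *Isg15*, a ubiquitin-like modifier, rose from 32.5 and 40.5 to 1394 and 1499 CPM, and *Cxcl9*, a chemokine induced by interferon-gamma, from 67.7 and 16.0 to 1828 and 1363 CPM. These calls, with that of *Ifi27l2a* (17.4 and 1.70 to 314 and 458 CPM), held in all 24 alternative fits.

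Promoters of the leading interferon genes were searched for the interferon-stimulated response element, as GAAANNGAAA on both strands. Windows from RefSeq (GRCm38.p6) reached from 250 bases before to 50 bases after each start. The stretches below lie before the start of the genes that led the response, to show the element beside their levels, with matches in capitals.
Ifit1 (chr19:34640745-34640853, plus strand): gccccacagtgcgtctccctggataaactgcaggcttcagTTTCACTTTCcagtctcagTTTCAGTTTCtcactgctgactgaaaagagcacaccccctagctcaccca
Ifit3 (chr19:34583333-34583456, plus strand): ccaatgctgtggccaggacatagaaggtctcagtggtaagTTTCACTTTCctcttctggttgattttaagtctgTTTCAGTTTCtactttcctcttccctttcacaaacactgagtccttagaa
Isg15 (chr4:156200835-156200936, minus strand): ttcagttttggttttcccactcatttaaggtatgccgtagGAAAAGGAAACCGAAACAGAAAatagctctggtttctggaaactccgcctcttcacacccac

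*Ifit1* and *Ifit3* each had 2 matches, on the opposite strand to the gene, and *Isg15* 3 overlapping ones. *Irf7* and *Cxcl9* had none in their windows, nor had the windows of *Kit*, *Dapk2*, *Fscn1* and *Adam19*. Of the 29 interferon genes 22 had a window, and 11 of these held the element. It was held by 45 of 138 genes (32.6%) called higher in both models and by 1 of 31 (3.23%) called lower in both, beside 4.26% of all tested genes with a window and 3.44% of the 32851 windows of the table. A match is a string of letters and not a measured site.

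Antigen presentation followed: 19 of 24 genes were called higher and none lower (median 1.91), 22 without the 27 lymphatic-marker cells. *B2m*, the light chain of MHC class I, was at 1195 and 1527 CPM after PBS and at 4990 and 5252 CPM after cGAMP. *Tap1*, the peptide transporter, went from 35.8 and 47.5 to 239 and 255 CPM, and *Psmb8* of the immunoproteasome from 192 and 234 to 1003 and 1018 CPM. The MHC class II genes *H2-Aa*, *H2-Ab1* and *Cd74* were among those called. Each cGAMP value lay above each PBS value of these genes.

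Of 15 chemokines and cytokines, *Ccl2*, *Ccl5*, *Cxcl9*, *Cxcl10* and *Il6* were called higher, 3 without replicate 1 of spontaneous cGAMP. *Cxcl10*, a T cell attractant, went from 53.2 and 79.1 to 585 and 463 CPM (log2 fold change 2.91 ± 0.49, limma adjusted p = 0.00234). Of 17 NF-kB targets, 1 was called, *Irf1*, and it was not without replicate 2 of spontaneous cGAMP (adjusted p = 0.0563, the highest of 24 alternatives), while 3 were called without the lymphatic-marker cells. Of 18 immediate early and stress genes, *Egr1* and *Klf2* were called higher, and neither was without replicate 1 of spontaneous PBS (adjusted p = 0.141 and 0.243) or of spontaneous cGAMP (0.127 and 0.202), nor *Klf2* without replicate 2 of spontaneous cGAMP (0.0817), of up to 0.236 and 0.243. Without the lymphatic-marker cells the list had 5 higher and 2 lower.

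Genes called lower were fewer and changed less. *Ifi27* was at 199 and 256 CPM after PBS and at 78.7 and 67.6 CPM after cGAMP, whereas the related *Ifi27l2a* rose. The log2 fold change of *Ifi27* was -1.56 ± 0.26 (limma adjusted p = 0.00202), and the call held in all 24 alternatives. *Col13a1*, a transmembrane collagen, went from 38.8 and 71.7 to 7.65 and 14.5 CPM, but the call was lost without replicate 2 of PBS (adjusted p = 0.0756) or replicate 1 of cGAMP (adjusted p = 0.0723), with a highest value of 0.102 over 24 alternatives. *Npnt*, a matrix ligand of integrins, and *Cda*, cytidine deaminase, also passed, and lost the call in 6 of 24 and 3 of 23 alternatives. For *Npnt* these included the fits without either PBS library or without replicate 1 of cGAMP (adjusted p = 0.159, 0.0841 and 0.208, the last the highest of all), and for *Cda* those without replicate 1 of PBS or of cGAMP (0.132 and 0.0692).

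*Lyve1*, *Marco* and *Mmrn1*, also called lower, came from the lymphatic-marker cells. *Lyve1*, the lymphatic hyaluronan receptor, was at 79.0 and 270 CPM after PBS and at 8.19 and 0 CPM after cGAMP. *Marco*, a scavenger receptor, was at 40 and 164 CPM after PBS and at 0 and 0 CPM after cGAMP, at least 58.1-fold lower against the floor. All 141 *Marco* UMIs lay in 3 cells, so this bound rests on those cells. *Mmrn1* lost its call in 7 of 22 alternatives, among them those without replicate 2 of either group (adjusted p = 0.241 and 0.188, of up to 0.487). Without the 27 cells none of the 3 genes was left to test, and 391 genes were called in all, 267 higher and 124 lower. For *Lyve1* and *Mmrn1*, which were among the genes that chose the 27 cells, that loss follows largely from the choice.

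Of 21 Kit signalling genes, *Kitl* was called lower and *Spry1* higher, beside 4.5% of all genes called. *Kitl*, the ligand of the Kit receptor, was at 324 and 324 CPM after PBS and at 218 and 201 CPM after cGAMP (log2 fold change -0.62 ± 0.14, limma adjusted p = 0.0256), a call lost in 7 of 24 alternatives (adjusted p of up to 0.232), among them median-of-ratios scaling and the fit without any single one of the 4 spontaneous libraries. *Spry1*, a brake on receptor tyrosine kinases, was called higher, from 119 and 150 to 244 and 259 CPM, but not without replicate 1 of PBS (adjusted p = 0.143, the highest of 24) or without replicate 1 or 2 of cGAMP (0.0656 and 0.107). Of 17 genes of BMP signalling, 24 of fascin and actin protrusion and 12 of death-associated kinases and autophagy, 0 were called in limma. At an unadjusted p under 0.05 were 6, 7 and 2 of them, beside 1215 of all 7154 genes. Without the lymphatic-marker cells 2 fascin and actin genes were called lower. *Nrp1* and *Nrp2*, coreceptors of VEGF and semaphorins, and the survival gene *Bcl2* were called lower. The calls of *Nrp1* and *Bcl2* were lost without any single one of the 4 spontaneous libraries, with adjusted p-values of up to 0.214 and 0.473 over their alternatives. *Nrp2* went from 527 and 443 to 230 and 284 CPM, and its call was lost without replicate 1 of PBS (adjusted p = 0.108, the highest of 24) or of cGAMP (0.103). Of 15 basement membrane genes *Lama4* and *Nid2* were called lower and *Agrn* higher, and 7 were lower without the lymphatic-marker cells. *Lama4* went from 642 and 531 to 357 and 316 CPM, a call lost without replicate 1 of PBS (0.113, the highest of 24) or replicate 2 of cGAMP (0.0928), and *Nid2* lost its call in 13 of 24 alternatives.

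Here 988 genes were called (13.8%), 467 higher (6.53%) and 521 lower (7.28%), and the interferon genes rose again, 28 of 29 with a median log2 fold change of 2.46 beside -0.12 over all genes. *Irf9*, at 73.5 and 52.2 CPM after PBS and 93.3 and 141 CPM after cGAMP, was the gene of the list that was not called. The total fell to 378 when replicate 2 of implanted PBS was left out, and to 641 when replicate 2 of implanted cGAMP was. With median-of-ratios scaling, which brings the median of all genes to about 0, the split was 588 higher and 305 lower, and in spontaneous tumours 261 and 43. The median mitochondrial share was 4.71% and 4.13% after PBS and 2.08% and 1.94% after cGAMP (4.42% and 4.32%, then 2.54% and 2.43%, in the other ECs), and its part in these counts was not tested.

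*Ccl5* was at 36.1 and 0.511 CPM after PBS and at 3801 and 3224 CPM after cGAMP (log2 fold change 7.86 ± 0.65, limma adjusted p = 7.99e-06). *Mx1*, an antiviral GTPase, went from 2.24 and 1.33 to 106 and 232 CPM, and *Ifi27l2a* from 20.4 and 19.2 to 608 and 650 CPM. *Irf7* went from 166 and 126 to 1553 and 1587 CPM. For *Irf7* both values after PBS lay above both values after PBS in spontaneous tumours.

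Of 24 antigen presentation genes 17 were called higher (median 1.11), 10 without replicate 2 of implanted PBS. *B2m* went from 3479 and 2762 to 6705 and 7678 CPM and *Cd274*, the checkpoint ligand PD-L1, from 84.8 and 35.0 to 217 and 420 CPM. The MHC class II genes were not among the 17. *H2-Ab1* was at 278 and 154 CPM after PBS and 295 and 296 CPM after cGAMP.

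Of 15 chemokines and cytokines 9 were called higher, 6 of 12 without the lymphatic-marker cells, and 4 without replicate 2 of implanted PBS or of implanted cGAMP. *Cxcl10* went from 857 and 178 to 2450 and 3815 CPM and *Ccl2* from 19.6 and 32.2 to 342 and 158 CPM. *Tnf* was at 1.09 and 4.13 CPM after PBS and 19.4 and 55.5 CPM after cGAMP, and its call (adjusted p = 0.0495) was lost in 10 of 16 alternatives, including those without replicate 1 or 2 of implanted PBS (0.207 and 0.152), of up to 0.318. Of 17 NF-kB targets 7 were called higher and none lower, 4 without the lymphatic-marker cells, and 4 without replicate 2 of implanted PBS or of implanted cGAMP. *Nfkbia*, the inhibitor induced by NF-kB itself, went from 476 and 452 to 876 and 980 CPM, and *Tnip1*, another negative regulator, from 105 and 92.7 to 240 and 253 CPM.

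Immediate early genes formed a further group, with 12 of 18 called higher and *Hspa1a* and *Hspa1b* lower. *Egr1*, an early growth response factor, went from 218 and 194 to 767 and 789 CPM (log2 fold change 1.90 ± 0.18, limma adjusted p = 2.75e-05) and *Fos* from 396 and 392 to 992 and 1418 CPM. *Klf2*, the shear-induced factor, went from 493 and 419 to 764 and 916 CPM. *Hspa1b*, a heat-shock chaperone, fell from 207 and 215 to 59.3 and 32.8 CPM. The values of *Hspa1a* and *Hspa1b*, near-identical copies, are uncertain one by one.

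Of 15 basement membrane genes 10 were called lower and none higher (median -0.72), 9 without the lymphatic-marker cells and 8 with median-of-ratios scaling. *Col4a1*, a chain of type IV collagen, was at 5457 and 5076 CPM after PBS and at 3052 and 2882 CPM after cGAMP (log2 fold change -0.83 ± 0.12, limma adjusted p = 0.000462). *Lama4*, the endothelial laminin chain, went from 627 and 567 to 260 and 254 CPM, and *Nid2* from 296 and 310 to 170 and 156 CPM. *Hspg2*, perlecan, went from 811 and 731 to 425 and 396 CPM. These were genes that were high in Kit Bmp2 Nos2 ECs against other ECs, and their groups did not overlap. Of 16 tumour capillary genes 8 were called lower, 5 of them also in the former list, and *Ptn* higher.

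The strongest single falls were in other genes. *Adam12*, a metalloprotease related to *Adam19*, went from 60.0 and 71.5 to 9.53 and 8.13 CPM (log2 fold change -2.35 ± 0.26, limma adjusted p = 7.43e-05). *Tmem255a*, a membrane protein, went from 86.9 and 77.7 to 19.5 and 8.52 CPM, *Atp2b4*, a plasma membrane calcium pump, from 75.0 and 92.7 to 25.3 and 7.01 CPM, and *Myh10*, non-muscle myosin IIB, from 81.7 and 85.8 to 21.7 and 10.4 CPM. *Egln3*, an oxygen-sensing prolyl hydroxylase, went from 38.3 and 22.9 to 2.76 and 2.84 CPM. These held in all their alternatives. *Moxd1* went from 78.3 and 47.4 to 13.1 and 6.46 CPM, and did not pass with replicate 1 of implanted PBS left out (adjusted p = 0.0528, the highest of 23). *Car4*, carbonic anhydrase of the capillary surface, was at 278 and 96.5 CPM and then at 42.7 and 11.2 CPM, and its call was lost in 6 of 24 alternatives, including those without replicate 1 of implanted PBS (0.149) or replicate 2 of implanted cGAMP (0.0719), of up to 0.739.

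Angiogenic receptors and ligands were split. Of 22 VEGF, Notch and angiopoietin genes 2 were called higher and 5 lower. *Angpt2*, the destabilising ligand of TIE2, rose from 73.8 and 50.5 to 200 and 356 CPM (log2 fold change 2.04 ± 0.26, limma adjusted p = 0.000188). *Aplnr*, the apelin receptor, fell from 257 and 317 to 137 and 75.8 CPM and *Nrp1* from 420 and 441 to 208 and 209 CPM, both in all 24 alternatives.

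Of 14 ADAM proteases and inhibitors 6 were called higher, *Timp1* and *Timp3* among them, and *Adam10* and *Adam12* lower, but none was called higher without replicate 2 of implanted PBS, and the count was 4 higher and 3 lower with the lymphatic-marker cells left out. Of 21 Kit signalling genes *Kitl* and *Gab1* were called lower and none higher, and *Kitl* went from 294 and 305 to 214 and 187 CPM. Its call (limma adjusted p = 0.0187) was lost in 8 of 24 alternatives, among them median-of-ratios scaling (0.0675), the fit without the lymphatic-marker cells (0.11) and those without replicate 1 or 2 of implanted PBS or replicate 2 of implanted cGAMP (0.0566, 0.104 and 0.0908), of up to 0.363. Of 15 nitric oxide and arginine genes, *Gch1*, which makes the cofactor of nitric oxide synthases, rose from 66.9 and 57.6 to 146 and 179 CPM, and *Cav1* and *Ddah2* were among those called lower. Of 17 genes of BMP signalling, the receptors *Acvrl1* and *Eng* were called higher and *Bmp1* lower. Of 24 genes of fascin and actin protrusion 5 were called lower (2 without replicate 2 of implanted PBS) and *Marcksl1* higher. Of 17 apoptosis and survival genes, *Birc2* and *Cflar* were among those called higher, none of which was without replicate 2 of implanted PBS, and *Bcl2* fell from 60.7 and 72.3 to 19.99 and 20.9 CPM.

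The lymphatic-marker cells set several of the largest values. *Ccl21a* was at 1.34 and 0 CPM after PBS and at 834 and 1320 CPM after cGAMP, *Ccl20* at 0 and 0 and at 506 and 1388 CPM (at least 476-fold higher against the floor), and *Lyve1* at 0 and 0 and at 170 and 177 CPM (at least 167-fold higher). *C3* went from 0.844 and 0 to 137 and 491 CPM, and *Clu* from 62.7 and 43.3 to 664 and 2903 CPM. Of the 27 lymphatic-marker cells of all groups, 8 had *Ccl21a* and 6 held 30 or more of its UMIs. *Ccl21a* and *Lyve1* were among the genes that chose the lymphatic-marker cells. No such cell was found after PBS and 12 were found after cGAMP. Without them *Clu* was not called (adjusted p = 0.655, of up to 0.968 over its alternatives, and 0.0902 without replicate 2 of implanted PBS), *Ccl21a*, *Ccl20*, *Lyve1* and *C3* were too low to be tested, and 959 genes were called.

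**Figure D4:**
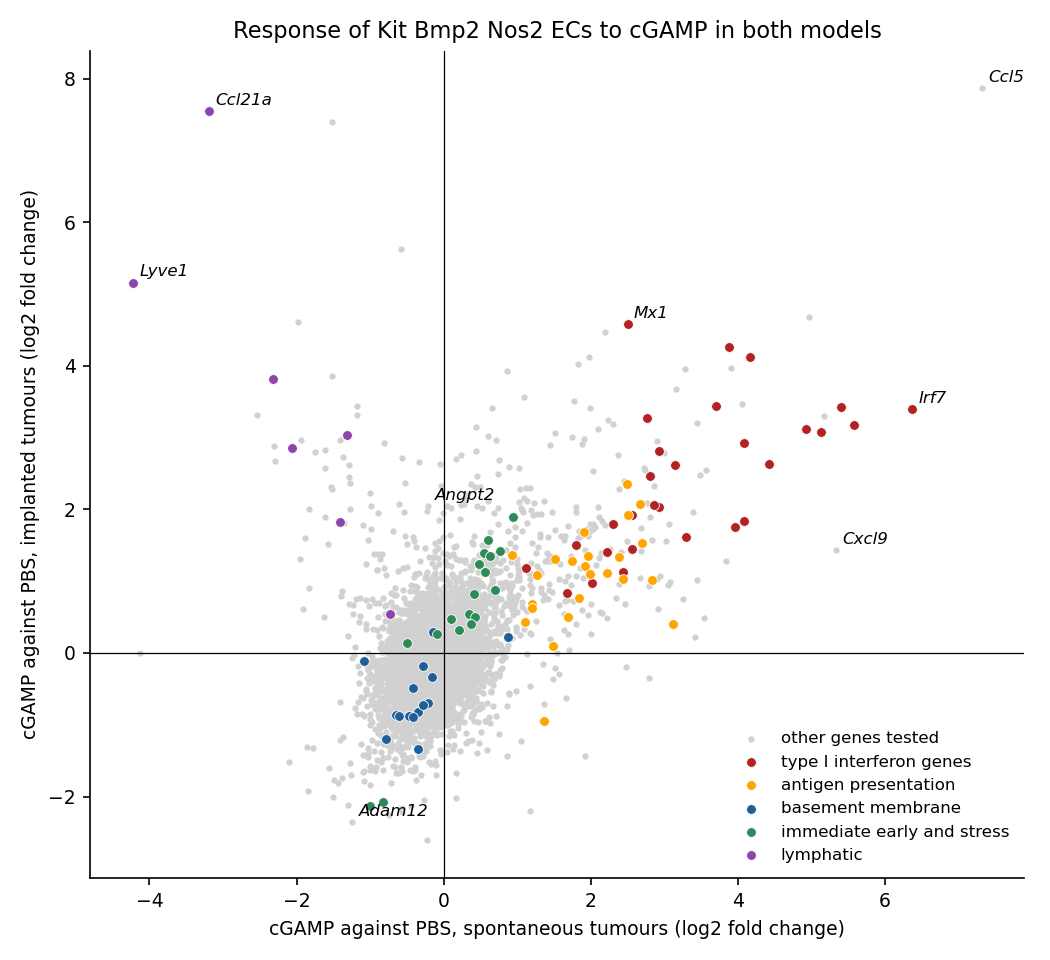
Log2 fold change of each tested gene between cGAMP and PBS in Kit Bmp2 Nos2 ECs, in spontaneous tumours (x axis) and implanted tumours (y axis), with 5 gene lists in colour. Interferon genes lie at positive values on both axes, basement membrane genes mostly below 0, and the lymphatic genes at the upper left come from the 27 lymphatic-marker cells.

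The 2 responses share no libraries. The genes called in the same direction in both numbered 223, which is 69.3% of the calls in spontaneous and 22.6% of those in implanted tumours. Of these 174 were higher and 49 lower, and 5 genes were called in opposite directions.

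The same fit tested the response in implanted tumours minus that in spontaneous ones, on the log2 scale. This difference passed for 89 genes (1.24%), positive for 42 (0.587%) and negative for 47 (0.657%). With 1 library left out, the count was 38 (spontaneous PBS 2), 58 and 8 (spontaneous cGAMP 1 and 2), 31 and 44 (implanted PBS 1 and 2) or 235 (implanted cGAMP 1). Without the lymphatic-marker cells it was 74, with 12 higher and 62 lower. By list, limma called the difference for 0 of 15 basement membrane genes, 0 of 18 immediate early and stress genes and 1 of 17 NF-kB targets (*Tnip1*). At an unadjusted p under 0.05 were 5, 7 and 7 of them, beside 854 of all 7154 genes. Apart from *Tnip1*, the unlike numbers of calls in the 2 models are thus not shown to be a difference of response for these lists.

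Of 29 interferon genes, 10 rose by less in implanted tumours and none by more (median -0.84). There were 13 such genes without the lymphatic-marker cells, 5 and 1 with replicate 1 or 2 of spontaneous cGAMP left out, and 6 with replicate 1 of implanted PBS left out. *Irf7* differed by -2.97 ± 0.28 and *Iigp1*, an interferon-gamma-induced GTPase, by -3.06 ± 0.29 (limma adjusted p = 0.000222 for each), in all 24 alternatives. *Cxcl9* differed by -3.91 ± 0.60 (limma adjusted p = 0.00733), and this was lost without replicate 2 of spontaneous cGAMP (0.0565) or replicate 1 of implanted PBS (0.0624), of up to 0.106. *Gbp2*, a guanylate-binding protein, differed by -3.20 ± 0.49 and lost its call without replicate 2 of spontaneous cGAMP (0.0679, of up to 0.106).

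These genes started from different levels. *Gbp2* was at 76.5 and 33.7 CPM in spontaneous PBS, 584 and 607 CPM in spontaneous cGAMP, 1753 and 747 CPM in implanted PBS, and 1460 and 1214 CPM in implanted cGAMP. *Iigp1* was at 78.5 and 76.3, 881 and 1036, 1636 and 944, and 1744 and 1733 CPM. For *Gbp2* both values in implanted PBS lay above those in spontaneous cGAMP, and for *Iigp1* these groups overlapped. *Angpt2* had a larger response in implanted tumours, at 59.1 and 69.2, 54.5 and 54.8, 73.8 and 50.5, and 200 and 356 CPM (difference 2.25 ± 0.36, limma adjusted p = 0.00918). It was lost without replicate 2 of spontaneous cGAMP (0.0718) or of implanted PBS (0.0573), of up to 0.1. *Fabp4* and *Fabp5*, fatty acid carriers, differed by -1.52 ± 0.28 and -1.89 ± 0.30. Both were lost without replicate 2 of spontaneous cGAMP (adjusted p = 0.149 and 0.0679) or of implanted PBS (0.0899 and 0.0573), and *Fabp4* also without replicate 1 of spontaneous PBS (0.0854), of up to 0.233 and 0.227.

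**Figure D5:**
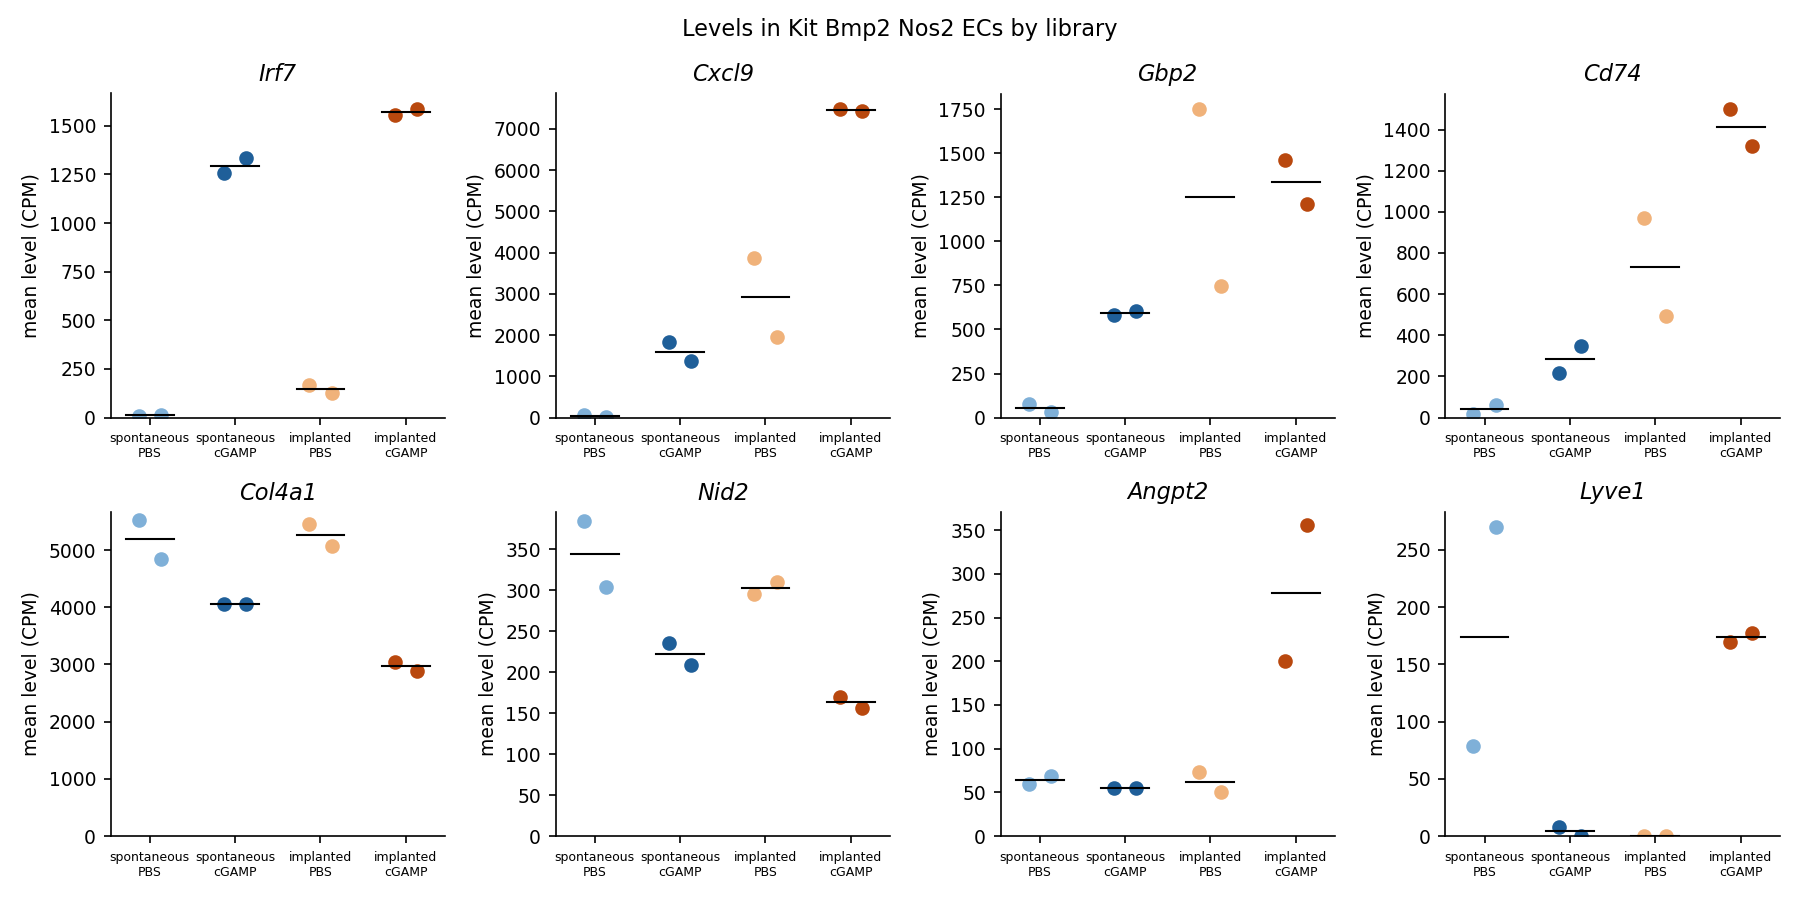
Mean level (CPM) of 8 genes in Kit Bmp2 Nos2 ECs of each of the 8 libraries (points, libraries; horizontal lines, group means of 2). *Gbp2* and *Cd74* were higher in implanted PBS than in spontaneous PBS, *Col4a1* and *Nid2* lowest in implanted cGAMP, and *Lyve1* followed the number of lymphatic-marker cells.

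This comparison asks how the cells differed between the models after PBS. It called 215 genes (3.01%), 147 higher (2.05%) and 68 lower (0.951%) in the implanted model. The count was 90 without replicate 1 of implanted PBS and 140 without replicate 2 of spontaneous PBS. *Cxcl9* was at 67.7 and 16.0 CPM in spontaneous and at 3871 and 1965 CPM in implanted tumours (log2 fold change 6.14 ± 0.42, limma adjusted p = 3.36e-06). *Ubd*, a ubiquitin-like protein, was at 2.93 and 17.5 and at 1173 and 370 CPM, *Gbp5* at 12.8 and 13.5 and at 358 and 147 CPM, and *Cd74*, the class II invariant chain, at 18.4 and 61.7 and at 968 and 494 CPM. *H2-Aa* was at 2.01 and 0 and at 130 and 84.4 CPM. Replicate 1 of implanted PBS was higher than replicate 2 for each of these, and both lay above both spontaneous values.

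As lists, 22 of 24 antigen presentation genes were called higher (median 1.53) and none lower, as were 22 of 29 interferon genes (median 1.46), or 14 without replicate 1 of implanted PBS. *Ciita*, the class II master regulator, was at 1.54 and 0.753 and at 67.6 and 25.7 CPM. Immune markers summed to 9.82 and 4.78 CPM in spontaneous PBS and 44.1 and 28.1 CPM in implanted PBS, and their part in these differences was not tested. Of 18 immediate early and stress genes 7 were lower and none higher, and this count was 2 when replicate 2 of spontaneous PBS was left out, 3 when replicate 1 of implanted PBS was and 12 when either library of implanted cGAMP was. *Car4* was at 0.549 and 10.7 and at 278 and 96.5 CPM, not called with replicate 1 of implanted PBS left out (adjusted p = 0.0537, of up to 0.38).

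Lower genes were led by those of lymphatic-marker and mural-marker cells. *Lyve1* had at least 129-fold and *Marco* at least 49.7-fold more in spontaneous PBS, where 12 lymphatic-marker cells were found against 0. The *Marco* UMIs came from 3 of these cells. *Mmrn1*, *Cd55*, *Ltb* and *Sema3d* lost the call in 6 to 10 of their 20 to 22 alternatives. Without replicate 2 of spontaneous PBS their adjusted p was 0.111, 0.294, 0.288 and 0.254, and without replicate 1 of implanted PBS 0.0838, 0.205, 0.225 and 0.194, of up to 0.732, 0.691, 0.288 and 0.254. Without replicate 2 of implanted PBS *Cd55*, *Ltb* and *Sema3d* lost it too (0.185, 0.158 and 0.127), and *Ltb* and *Sema3d* without replicate 1 of spontaneous PBS (0.0607 and 0.057). *Postn*, a matrix protein, was not called without the lymphatic-marker cells (0.175, of up to 0.94). *Rgs5*, the pericyte marker, was at 133 and 475 CPM in spontaneous and at 19.5 and 4.29 CPM in implanted PBS, a call lost in 4 of 24 alternatives, among them without replicate 2 of spontaneous PBS (0.0891) or of implanted PBS (0.11), of up to 0.205. Without the lymphatic-marker cells 244 genes were called.

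Here 493 genes were called (6.89%), 240 higher (3.35%) and 253 lower (3.54%), but 73 without replicate 2 of spontaneous cGAMP, 169 without replicate 1 of it and 266 without replicate 2 of implanted cGAMP. *Ubd* stayed apart, at 16.5 and 28.8 CPM in spontaneous and 1596 and 1251 CPM in implanted tumours (log2 fold change 5.72 ± 0.49, limma adjusted p = 8.67e-05). *Lipg*, endothelial lipase, was at 9.61 and 3.19 and at 90.2 and 98.3 CPM, and *Col13a1* at 7.65 and 14.5 and at 96.4 and 169 CPM. *Serpine2*, a protease inhibitor, was at 117 and 94.5 and at 7.82 and 1.25 CPM, and *Rbp7*, a retinol carrier of capillaries, at 436 and 558 and at 121 and 27.5 CPM. These 5 calls held in all their alternatives.

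Of 24 antigen presentation genes 11 were called higher and of 29 interferon genes 7, but 1 and 2 interferon genes when replicate 1 or 2 of spontaneous cGAMP was left out, and 1 when replicate 2 of implanted cGAMP was. For antigen presentation these counts were 2, 4 and 5. Median-of-ratios scaling gave 349 higher and 166 lower genes, and after PBS 167 and 49. Genes of mural cells, *Acta2*, *Tagln*, *Higd1b*, *Myl9*, *Rgs5* and *Mgp*, were lower in the implanted model, where mural markers summed to 35.4 and 198 CPM against 818 and 700 CPM. *Acta2*, *Tagln*, *Higd1b*, *Rgs5* and *Mgp* were not called without replicate 1 of spontaneous cGAMP (adjusted p = 0.059, 0.059, 0.0636, 0.113 and 0.26, of up to 0.66, 0.11, 0.114, 0.675 and 0.26), and the last 3 not without replicate 2 of it (0.114, 0.253 and 0.117). *Ccl20*, *Ccl21a*, *Lyve1*, *Clu* and *Mmrn1* were higher, again with the lymphatic-marker cells. *Clu* lost its call in 12 of 24 alternatives, and *Ccl21a* without replicate 2 of spontaneous cGAMP (adjusted p = 0.0805, of up to 0.357). Without the lymphatic-marker cells 581 genes were called.

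The cGAMP response of Kit Bmp2 Nos2 ECs was set against that of the other ECs of the same libraries, over 7416 genes. In spontaneous tumours 1 gene was called (0.0135%), *Lyve1*, and 0 without the lymphatic-marker cells, without replicate 1 of spontaneous PBS (adjusted p = 0.155) or without replicate 2 of it (0.202, of up to 0.583). In implanted tumours 0 genes were called in limma (0%), with 894 at an unadjusted p under 0.05 in implanted and 432 in spontaneous tumours. In implanted tumours, summed UMIs gave 6 and a pseudocount of 20 CPM gave 31. At this depth no gene outside the lymphatic-marker cells was shown to respond differently in Kit Bmp2 Nos2 ECs than in the ECs around them, which does not show that the responses were alike.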

How the data were processed

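The authors sequenced 8 single-cell RNA libraries of sorted ECs and, per the submitters' processing notes, used Cell Ranger 3.0.0, Seurat 3.1.1 and the mm10 build. The deposited values are the natural log of 1 plus UMIs per 10000 for each cell. UMIs were recovered from them, and levels were set to CPM. Genes absent from a table were taken as 0, and no doublet caller was run.

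Levels of the member cells were averaged within a library and tested with limma 3.58.1 (R 4.3.3, trend) on log2(CPM + 5), over genes at 20 CPM or more in 2 or more libraries, with 1 mean per group and Benjamini-Hochberg adjustment. A count model had been planned only for raw counts, which the files do not hold. Shares were compared with exact permutation tests (scipy 1.17.1, Python 3.11.15). The limma steps were also run on simulated data. Their spread between libraries was set to the same value for every gene and not taken from these libraries. That run therefore does not measure the error rate of the calls given here.

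The members and lists were chosen with earlier results of these data known. Genes were named by rule: in each comparison the 8 called genes with the largest change in each direction (5 for differences of responses) with 30 CPM or more in the higher group and no overlap, called genes of the lists, and, against other ECs, the 20 highest and 10 lowest, of which some are printed. *Irf9*, *H2-Ab1* in implanted tumours and *Ciita* were added after their values were seen. Alternatives changed the pseudocount, filter, scaling, weights, cells and libraries. Those without lymphatic-marker or other marked cells, and with a *Kit* UMI only, were chosen after seeing the data. Some genes that the rule names are not reported here.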

Additional observations from a re-analysis of the deposited data

Results flagged for a closer look

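The response to cGAMP differed between implanted and spontaneous tumours for 89 genes, by a test of the difference itself. Given as differences of log2 fold changes, implanted minus spontaneous, the largest positive ones were 10.74 for *Ccl21a*, 9.38 for *Lyve1*, 8.92 for *Ccl20*, 6.59 for *Clu* and 6.20 for *C3*. The 27 cells with 3 or more lymphatic markers held from 80.9% (*C3*) to 99.9% (*Ccl20*) of the UMIs of these 5 genes in Kit Bmp2 Nos2 ECs. *Ccl21a* and *Lyve1* were among the genes that chose those cells. The largest negative differences were -3.91 for *Cxcl9*, -3.37 for *Moxd1*, -3.20 for *Gbp2*, -3.06 for *Iigp1* and -2.97 for *Irf7*. *Moxd1* lost its call without replicate 2 of spontaneous cGAMP (limma adjusted p = 0.105) or replicate 1 of implanted PBS (0.119, the highest of 23 alternatives).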

How the results depend on the processing

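With 2 libraries a group, single libraries moved most counts. Leaving out 1 library gave 178 to 425 calls for cGAMP in spontaneous tumours, 378 to 1099 in implanted tumours, 8 to 235 for the difference of responses, 90 to 306 between models after PBS, 73 to 639 after cGAMP, and 0 to 1 for the response against other ECs in either model. Leaving out 1 library put the share difference between cGAMP and PBS at -0.833 to -0.0614 points and that between models at -4.22 to -3.45 points.

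With no filter on low values the counts were 633 in implanted tumours, 5 for the difference, 133 after PBS and 206 after cGAMP. Taking ECs with 3 or more markers gave 589 in spontaneous tumours, 140 for the difference, 448 after PBS and 908 after cGAMP. Taking ECs with 5 or more gave 445 in implanted tumours and 237 after cGAMP. Leaving out the 181 cells with 3 or more mural, fibroblast, epithelial or immune markers kept 248 cells. The counts were then 193, 578, 54 and 140 for spontaneous tumours, implanted tumours, the difference and PBS. Weighting libraries by cells gave 326 after cGAMP. Against other ECs, spontaneous tumours had 0 calls with a pseudocount of 1 CPM, 2 with a filter of 50 CPM and 0 without the lymphatic-marker cells, and implanted tumours had 31 with a pseudocount of 20 CPM, 2 with a filter of 50 CPM and 6 from summed UMIs. The cause was not tested, beyond the fewer cells or more genes that these settings hold by construction.

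Shares of ECs with 3 or more markers differed by 1.09 points between treatments and by -5.66 between models, and those with 5 or more by -0.870 between models. Counted whatever their tip-like and cycling genes, the differences were 1.96 and -2.93 points. Thinning to 5000 and 3000 UMIs gave -0.978 and 0.246 points between models. *Clu* reversed to -0.0419 in implanted tumours without cells carrying lymphatic, mural, fibroblast or immune markers, and its difference of responses to -0.94 and -0.86 without the lymphatic-marker cells or all of these. *Mmrn1* between models after PBS reversed to 0.31 with 3 or more markers. Of the other single-gene values under alternatives 1521 kept their direction and call and 176 kept only their direction.

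Samples with the same replicate number did not deviate together (r over genes of -0.199 to 0.164 between groups), so the numbers do not pair them. With the number as a replicate block the counts were 277, 852, 57, 197 and 382 for spontaneous tumours, implanted tumours, the difference, PBS and cGAMP, and 1 and 2 against other ECs.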
